A study of Mus musculus with 4 samples.

Results

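Gene-flanking intergenic accessible regions of cultured mouse natural killer (NK) cells are described here: stretches of open chromatin that lay outside every protein-coding gene, more than 1 kb and at most 100 kb from the nearest one. Of 91266 accessible regions in the deposited list, 27909 met this rule. The regions came from ATAC-seq, which reads open chromatin from where a transposase can reach the DNA, on splenic NK cells of wild-type C57BL/6 mice. Cells were kept for 72 h in a high dose of interleukin-15 (IL-15; 2 samples) or in a low dose (2 samples), and the labels used here give no concentration for either dose. The readout is whether a region was in the up list or the down list, which the authors drew from the dose comparison and deposited as positions. Which dose was the reference is not given in the sources used here, so neither list is assigned to a dose below. The tables hold positions and no value per sample: depth is unknown, no replicate error can be given, and no test of dose was possible. Shares carry 95% Wilson intervals, which cover counting error only. Regions are not replicates and neighbours are not independent, so these intervals are descriptions of the lists.

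Open chromatin between genes holds many of the enhancers that set when and where a gene is transcribed, and an enhancer may act on a gene other than the nearest. IL-15 is read by NK cells through a receptor whose beta chain is encoded by Il2rb, and the signal runs through JAK kinases to STAT factors. It sustains NK cell survival, drives division and nutrient use, and raises effector functions. The labelled cell type was checked first. All 15 of 15 NK marker genes had an accessible region within 1 kb of the gene or inside it, against 8 of 10 T cell markers, 5 of 8 B cell markers and 4 of 10 myeloid markers. Markers with no region there included Cd8a, Cd8b1, Ms4a1, Cd79b, Lyz2, Adgre1, C1qa, Csf3r, Elane and Mpo, while Ebf1 had 13, Trat1 7, and Pax5 and Spi1 6 each. Of all flanking regions 5.61% were up and 1.21% down, and of all regions 4.21% and 1.40%. Of 68 flanking regions nearest to NK markers 0 were up and 1 was down, and of 8 nearest to myeloid markers none was listed. Up regions were 2 of 6 nearest to B cell markers and 2 of 25 nearest to T cell markers. In the down list were 1 of the 6, near Cd22, and 2 of the 25, both near Cd28. The part of other cells in the lists was not tested.

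Sequence could be shown only where a flanking region held the start of an annotated transcript. RefSeq promoter windows of assembly GRCm38.p6, the assembly to which the submitters' build mm10 corresponds, run from 250 bases before to 50 bases after a start. A whole window lay in 297 flanking regions, 13 of them up, 5 down and 279 in neither list. The flanking rule shuts out the starts of protein-coding genes, and every window found belonged to a long non-coding RNA (lncRNA) gene. Each window was searched on both strands for 10 short motifs: TGANTCA (AP-1), TTCNNNGAA (STAT), TGTGGT (RUNX), AGGTGTGA (T-box), ACAGGAAG (ETS), CTTTGAT (TCF-LEF), GGGGCGGGG (KLF-SP), a 10-letter IRF element, TGACATCA (CRE-like) and CCACTAG (part of CTCF). Matches to different motifs may share bases. The AP-1 letters were in 5 of the 13 up windows, 1 of the 5 down windows and 29 of the 279 unlisted ones (10.4%), and in 7.81% of all 32817 windows (9.31% of the 11587 of lncRNA genes). Where a region held several windows, the first by position was counted. All 6 listed windows with the AP-1 letters are printed below, since it was the motif most often matched, with RUNX, in the up windows and is that of a factor group described further on. They are followed by a down window near Ets1 with a RUNX match and an up window near Ptgs2 with a STAT match, and all 8 were chosen after the matches were seen. Capitals mark matches, and each line runs 5′ to 3′ on the strand of the transcript.
Gm39473 (up): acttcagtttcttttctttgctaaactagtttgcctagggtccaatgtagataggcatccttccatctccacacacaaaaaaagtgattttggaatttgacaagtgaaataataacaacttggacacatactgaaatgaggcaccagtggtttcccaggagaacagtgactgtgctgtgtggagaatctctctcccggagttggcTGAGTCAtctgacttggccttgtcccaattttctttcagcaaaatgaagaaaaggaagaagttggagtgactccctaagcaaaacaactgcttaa
Gm39082 (up): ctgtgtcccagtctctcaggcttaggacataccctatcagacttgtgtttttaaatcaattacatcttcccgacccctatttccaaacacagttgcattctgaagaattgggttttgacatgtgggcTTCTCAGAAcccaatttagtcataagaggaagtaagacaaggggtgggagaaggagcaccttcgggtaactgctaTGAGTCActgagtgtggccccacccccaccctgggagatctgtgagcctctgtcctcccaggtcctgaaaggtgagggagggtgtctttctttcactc
Gm40007 (up): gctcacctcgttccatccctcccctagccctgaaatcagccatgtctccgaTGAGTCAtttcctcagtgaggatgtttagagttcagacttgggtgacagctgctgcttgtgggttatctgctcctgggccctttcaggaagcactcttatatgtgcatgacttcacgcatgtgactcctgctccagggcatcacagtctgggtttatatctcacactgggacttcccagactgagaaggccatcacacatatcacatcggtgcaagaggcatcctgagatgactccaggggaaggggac
Gm44507 (up): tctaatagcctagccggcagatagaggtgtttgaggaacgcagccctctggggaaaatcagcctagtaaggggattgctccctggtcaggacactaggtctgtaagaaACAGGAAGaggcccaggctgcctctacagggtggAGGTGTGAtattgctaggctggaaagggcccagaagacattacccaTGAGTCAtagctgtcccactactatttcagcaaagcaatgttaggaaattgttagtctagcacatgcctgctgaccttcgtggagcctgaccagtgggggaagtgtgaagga
3300005D01Rik (up): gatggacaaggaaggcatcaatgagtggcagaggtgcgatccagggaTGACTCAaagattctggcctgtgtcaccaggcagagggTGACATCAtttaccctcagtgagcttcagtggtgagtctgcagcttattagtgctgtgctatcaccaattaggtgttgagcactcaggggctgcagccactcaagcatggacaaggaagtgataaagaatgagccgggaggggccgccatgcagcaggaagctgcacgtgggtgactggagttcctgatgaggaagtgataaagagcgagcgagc
Gm41538 (down): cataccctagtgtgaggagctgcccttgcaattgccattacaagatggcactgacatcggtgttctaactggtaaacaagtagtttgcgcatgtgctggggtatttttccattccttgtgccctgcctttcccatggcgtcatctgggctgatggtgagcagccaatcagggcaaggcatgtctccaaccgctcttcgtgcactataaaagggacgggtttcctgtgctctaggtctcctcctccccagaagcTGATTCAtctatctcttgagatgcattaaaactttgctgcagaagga
Gm3331 (down): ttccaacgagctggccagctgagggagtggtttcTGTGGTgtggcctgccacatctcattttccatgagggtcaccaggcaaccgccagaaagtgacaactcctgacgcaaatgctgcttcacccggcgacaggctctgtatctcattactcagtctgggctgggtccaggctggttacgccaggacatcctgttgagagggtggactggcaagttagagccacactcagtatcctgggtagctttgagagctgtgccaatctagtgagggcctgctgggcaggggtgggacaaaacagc
Ptgs2os2 (up): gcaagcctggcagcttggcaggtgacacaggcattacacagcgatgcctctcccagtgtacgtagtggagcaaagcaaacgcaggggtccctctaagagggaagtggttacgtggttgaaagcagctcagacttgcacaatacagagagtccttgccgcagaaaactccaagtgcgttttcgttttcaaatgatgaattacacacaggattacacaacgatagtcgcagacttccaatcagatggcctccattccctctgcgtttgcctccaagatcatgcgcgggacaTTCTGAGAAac

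In 3 of the 6 windows with the AP-1 letters no other motif was matched. The up window of Gm39473 lay at chr12:74825050-74825349 (plus strand), 71.8 kb from Kcnh5 by its region. Gm39082 was at chr7:122924265-122924564 (plus) and held a STAT match as well. Gm40007, at chr2:172276164-172276463 (minus), held AP-1 alone. Gm44507, at chr7:98415566-98415865 (minus), added a T-box and an ETS match. The window of 3300005D01Rik, at chr17:5798407-5798706 (plus), had both AP-1 and the CRE-like letters. The down window with AP-1, that of Gm41538, was at chr17:18968992-18969291 (minus). Gm3331 starts at a down region 31.5 kb from Ets1, which encodes a transcription factor needed for NK cell development, and its window was chr9:32789367-32789666 (plus). Ptgs2os2 starts in an up region 56.6 kb from Ptgs2, the inducible cyclooxygenase gene, with its window at chr1:150164899-150165198 (minus).

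With 13 and 5 listed windows, the shares of listed windows are imprecise for every motif, AP-1 included. The RUNX letters were in as many up windows as AP-1, 5, in 2 down windows and in 63 unlisted windows (22.6%), against 16.8% of all windows and 20% of lncRNA windows. STAT letters were in 3 up, 1 down and 27 unlisted windows (9.68%), against 8.29% overall and 9.41% of lncRNA windows. T-box letters were in 2 up windows, 0 down and 6 unlisted ones (2.15%), with 1.27% overall and 1.5% of lncRNA windows. The ETS letters were in 2 up windows, 0 down windows and 34 unlisted windows (12.2%), compared with 3.57% overall and 4.22% of lncRNA windows. KLF-SP letters were in 1 up and 33 unlisted windows (11.8%), and CRE-like letters in 1 up and 4 unlisted ones (1.43%). No up window held the TCF-LEF, IRF or CTCF letters, which were in 10 (3.58%), 1 (0.358%) and 15 (5.38%) unlisted windows. None of these 5 motifs was in a down window. The median GC content was 50.7% in the up windows, 47.7% in the down windows, 53.7% in the unlisted ones and 48.3% in all lncRNA windows. These are letter matches in 1 window per region, and the remainder of each region was not searched.

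Flanking regions leaned to the up list. Of the 27909, 1566 were up (5.61%, 5.35 to 5.89%) and 339 were down (1.21%, 1.09 to 1.35%), where 4.21% of all regions were up and 1.40% were down. There were thus 4.62 up regions for each down region, and up regions made 82.2% of the listed flanking ones (80.4 to 83.9%). Among the 63357 regions outside the flanking set the ratio was 2.43 and the up share of listed regions 70.9% (69.3 to 72.4%). Seen from the lists, flanking regions made 40.7% of the up list (39.2 to 42.3%), 26.6% of the down list (24.2 to 29.1%) and 30.2% of unlisted regions (29.9 to 30.5%).

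Regions inside genes, the largest class, were less often up (4.17%, 3.98 to 4.36%) and more often down (1.64%, 1.52 to 1.76%) than flanking ones, with intervals that did not overlap. Regions more than 100 kb from a gene had a like share of up regions (5.64%, 5.06 to 6.27%) but 2.69% down (2.30 to 3.15%). Of regions over or within 1 kb of a gene's start or end, called boundary regions here, 1.33% were up and 0.609% down. After all classes were weighted to the same widths, the order of the shares was the same: 4.21% of regions inside genes were up and 1.64% down, 5.74% and 2.74% beyond 100 kb, and 2.06% and 0.674% at boundaries.

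**Figure D1:**
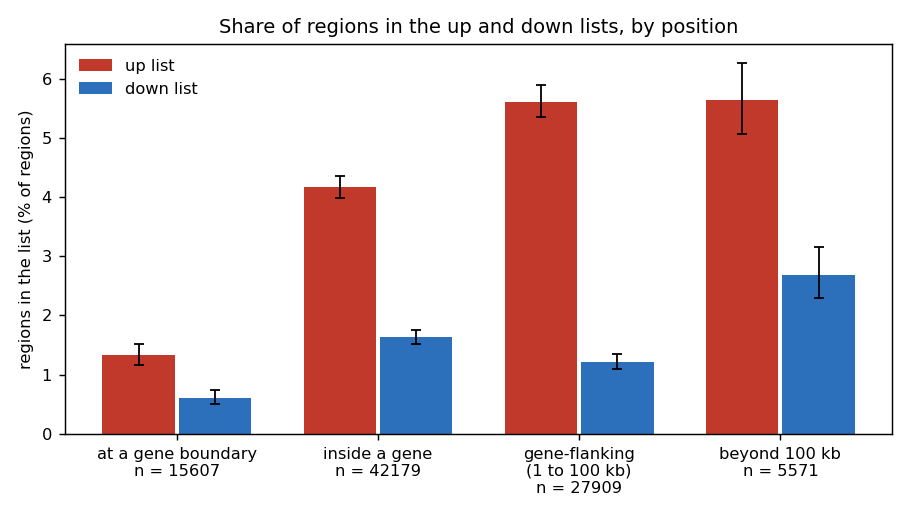
Share of accessible regions in the authors' up list (red) and down list (blue), in percent of regions, for 4 position classes, with n the number of regions and bars the 95% Wilson intervals. The flanking class has 5.61% up and 1.21% down. The class beyond 100 kb has 5.64% up and 2.69% down.

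Distance to the nearest gene went with how often a region was listed, with little difference in the balance of the lists. From 1 to 5 kb, 5.70% of 5557 regions were in either list (5.12 to 6.35%). The share was 5.57% from 5 to 10 kb, 6.54% from 10 to 25 kb, 8.22% from 25 to 50 kb and 8.33% from 50 to 100 kb (7.55 to 9.18%). Up regions went from 4.75% in the nearest class to 6.83% in the farthest, and down regions from 0.954% to 1.5%. The up share of listed regions stayed between 81.1% and 83.3% over the 5 classes, and all 5 intervals overlapped. Median widths ranged from 339 to 370 bp, and weighting every class to the same widths gave 5.80% listed in the nearest class and 8.49% in the farthest. By the length of the stretch between genes, 5.42% of regions were listed in stretches up to 20 kb and 8.08% in those over 200 kb. The down share was 0.779% (0.524 to 1.16%) in the shortest and 1.78% (1.49 to 2.13%) in the longest. Up regions made 85.6% (79.5 to 90.1%) and 78.0% (74.3 to 81.3%) of those listed, a wider range than by distance but with overlapping intervals.

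**Figure D2:**
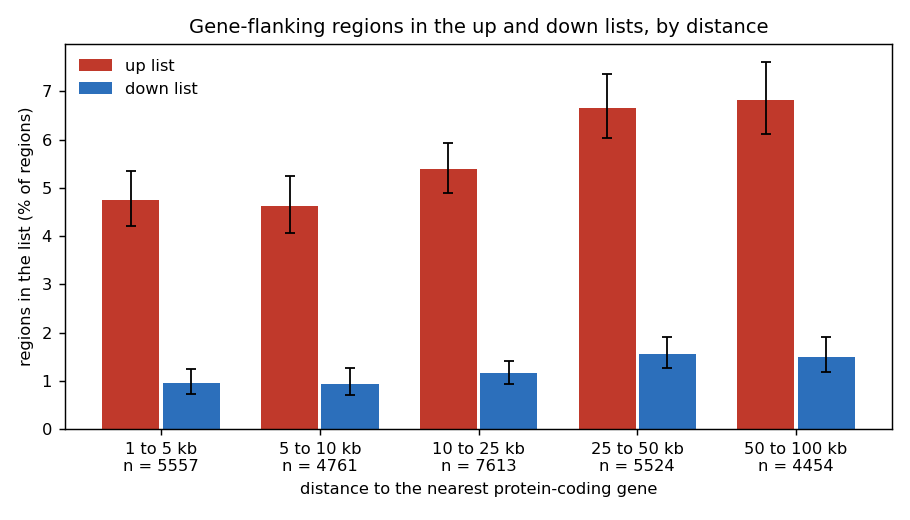
Share of gene-flanking regions in the up list (red) and the down list (blue), in percent, by distance to the nearest protein-coding gene, with n regions per class and 95% Wilson intervals. Up regions go from 4.75% at 1 to 5 kb to 6.83% at 50 to 100 kb, down regions from 0.954% to 1.5%.

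At the limits of the rule, 5.93% of 961 regions from 1 to 1.5 kb were up and 0.937% down, where the 1077 regions from 0.5 to 1 kb had 2.97% and 1.11%. At the far limit, 5.75% of 574 regions from 90 to 100 kb were up and 1.74% down, and of the 500 from 100 to 110 kb 6.60% were up and 1.60% down. Strand was known for the nearest gene of 21832 flanking regions. Upstream of the gene 5.91% of 12001 regions were up (5.50 to 6.34%) and downstream 5.36% of 9831 (4.93 to 5.82%), with overlapping intervals. The down shares were 1.14% and 1.15%.

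Of the flanking regions, those in the down list were the widest, with a median of 529 bp, against 450 bp for up and 348 bp for unlisted ones. The balance of the lists differed by width. In the widest of 10 width classes (791 to 2643 bp) 87 regions were up and 61 down, so that up regions made 58.8% of those listed (50.7 to 66.4%). Of regions 361 to 430 bp wide, 276 were up and 36 down (88.5%, 84.4 to 91.5%). The 3 widest up regions were 1342 bp at chr13:113396176-113397517, 25.7 kb from Cspg4b, 1258 bp at chr2:102980893-102982150, between Pdhx and Cd44, and 1202 bp at chr15:88843491-88844692, 9.75 kb from Gm33049. The widest down region was 1735 bp at chr9:124256282-124258016, 9.87 kb from Gm39469. Next came 1356 bp at chr1:128614421-128615776, 22.1 kb upstream of Cxcr4, the receptor for the chemokine CXCL12, and 1340 bp at chr5:52871427-52872766, 4.69 kb from Anapc4. Across the 20 chromosomes other than Y, the up share ran from 3.88% on chromosome 19 to 7.77% on chromosome 18 and the down share from 0.422% on 11 to 2.02% on X. Up regions outnumbered down regions on each of these 20, with a lowest up share of 70.8% of listed regions, on X.

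Most stretches between neighbouring genes that held several listed regions held regions of 1 list. Flanking regions lay in 7772 stretches, of which 1162 held an up region, 265 a down region and 55 both. Of the 353 stretches with at least 2 listed regions, 259 held up regions only, 39 down regions only and 55 both (15.6%), where 82.2% of all listed flanking regions were up. The 5 stretches with the most up regions and the 5 with the most down regions are described next. Ties were broken by the larger share of the stretch's regions, which left out 1 other stretch with 6 up regions and 4 others with 3 down regions.

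The largest number of up regions lay between Basp1 and Myo10 on chromosome 15, where 9 of 20 flanking regions were up, spread over 98.0 kb (chr15:25494468-25592420). Of these, 8 were nearest to Myo10, which encodes an unconventional myosin of filopodia, at 30.1 to 85.2 kb upstream of it. None of the 10 regions at Myo10 itself was listed. Between Slc25a24, a mitochondrial ATP-Mg/phosphate carrier gene, and Vav3, which encodes a guanine nucleotide exchange factor, 8 of 14 regions were up. Between Ccny, encoding cyclin Y, and Cetn1, 7 of 11 were up within 36.9 kb (chr18:9471838-9508775). Between Hk2, the gene of the glycolytic enzyme hexokinase 2, and Sema4f, 7 of 21 were up. Between Dock5 and Nefl, 6 of 15 were up, 5 of them 32.4 to 49.1 kb from Nefl, the neurofilament light chain gene. No down region was present among the flanking regions of these 5 stretches.

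The largest number of down regions in 1 stretch lay between Gsta3, a glutathione S-transferase gene, and Khdc1a on chromosome 1. There 9 of 16 flanking regions were down and 0 up, over 70.0 kb (chr1:21274656-21344647), with widths from 250 to 1223 bp. Between Spry2, which encodes an inhibitor of receptor tyrosine kinase signalling, and Trim52, 5 of 25 were down and 1 up. Between the Krüppel-like factor gene Klf13 and Gm45988, 4 of 28 were down, from 283 to 1161 bp wide. Upstream of Klf6, another gene of that family, 3 of 15 regions were down at 10.9, 34.8 and 82.5 kb. Between Gm52612 and Cd2, an adhesion receptor gene of T and NK cells, 3 of 9 were down, 2 of them nearest to Cd2 at 9.71 and 33.3 kb.

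**Figure D3:**
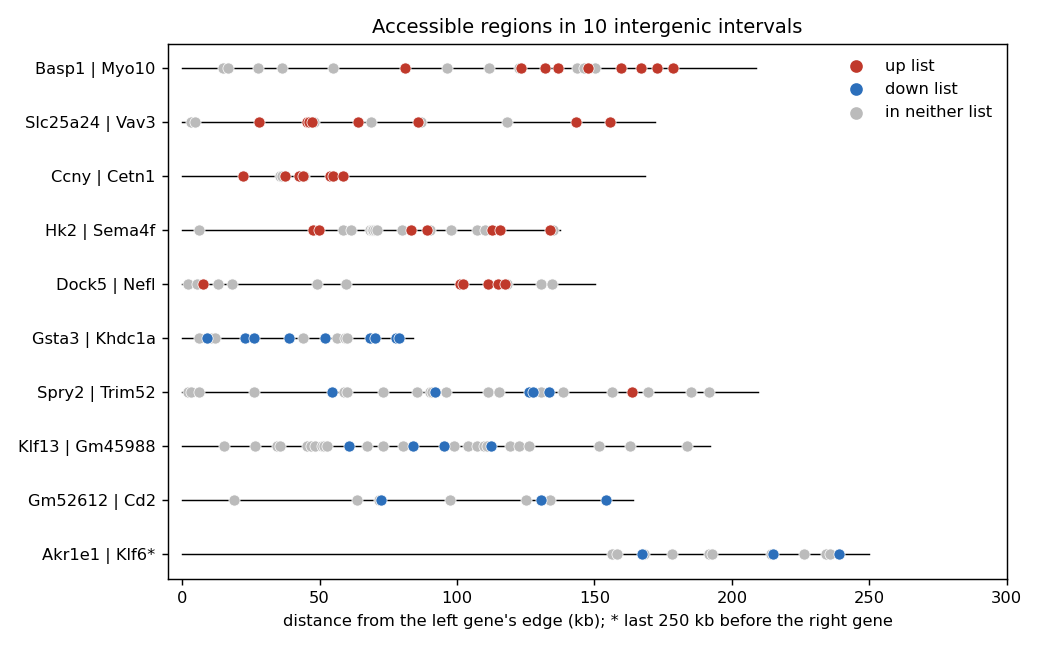
Position of each flanking region in the 5 stretches between genes with most up regions (top) and the 5 with most down regions (bottom), with ties broken by share, in kb from the edge of the left gene, with the last 250 kb shown for the stretch marked by an asterisk. Red points are up, blue down, grey in neither list. In the bottom stretches a single point is red, between Spry2 and Trim52, to the right of the blue ones.

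By nearest gene, 9021 of 21887 protein-coding genes had a flanking region, 1214 of them an up region (13.5%), 271 a down region (3.0%) and 40 both. Most genes with an up region had a single one (973), and 75 had at least 3. The 10 genes with the most up flanking regions were Myo10 with 8 of 14, Ccny with 7 of 11, Slc25a24 with 6 of 10, and then 7 genes with 5 each. These 7 were Kcnj16 (of 8 regions), Nefl (8), Maf (11), Cdkn2b (12), 1600014C23Rik (13), Sema4f (16) and Bcas1 (21). No gene among the 10 had a down flanking region. The 5 up regions of 1600014C23Rik lay on the side facing Vegfa, the gene of a vascular growth factor. The 5 of Kcnj16, a potassium channel gene, stood 24.8 to 80.9 kb upstream.

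The 10 genes with the most down flanking regions began with Khdc1a (5 of 10) and Gsta3 (4 of 7). The other 8 had 3 each: Cycs, which encodes cytochrome c (of 12), Gpr174, a lysophosphatidylserine receptor gene (13), Prag1 (18), Trim52 (18), Klf13 (19), Klf6 (19), Ywhaz (19) and Btg1, an antiproliferative gene (29). Trim52, Ywhaz and Btg1 each had 1 up region as well. The 3 of Cycs stood within 6.36 kb of each other (chr6:50519701-50526059). Near Btg1 the down regions were 15.9 to 51.3 kb from the gene and the up region 93.6 kb away.

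Flanking and genic regions of a gene were then set side by side, counting as genic each region inside the gene or within 1 kb of it. Of the 1091 genes with an up flanking region and at least 1 genic region, 18.8% also had an up genic region, against 12.3% of all 7769 genes with both kinds of region. Down genic regions were found at 6.14% of these 1091 genes and at 6.14% of the 7769. Of the 246 genes with a down flanking region, 24.0% had a down genic region and 8.54% an up one. Of genes with an up genic region 21.5% had an up flanking region and 2.2% a down one, and of genes with a down genic region 14% and 12.4%, against 14% and 3.17% of the 7769 genes. At most genes with a listed flanking region and a genic one, no genic region was in the same list.

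Genes of 14 functional groups were examined next. Of their 328 genes, 249 were nearest to 1559 flanking regions, of which 71 were up (4.55%, 3.63 to 5.71%) and 36 down (2.31%, 1.67 to 3.18%). The interval of the up share includes the 5.61% of all flanking regions, and that of the down share lies above their 1.21%. With regions given to both neighbouring genes, some count more than once. Of these pairs of region and gene 4.20% were up (3.45 to 5.10%), and the same share over all genes was not computed. Of the 107 regions listed by nearest gene, 66.4% were up. At least 1 up region was found at 41 genes (16.5%) and at least 1 down region at 28 (11.2%), against 13.5% and 3.0% of all genes with a flanking region. The group genes had 6.26 flanking regions each on average and all such genes 3.09, so the shares of genes are not on an equal footing.

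**Figure D4:**
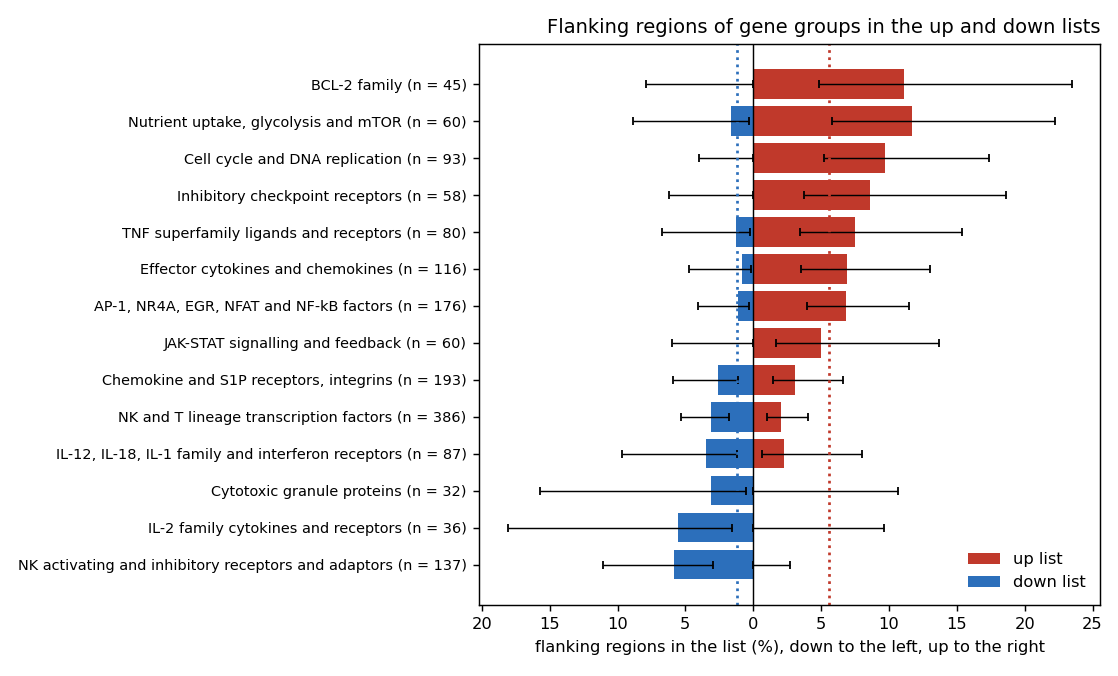
Share of the flanking regions nearest to the genes of each of 14 groups that were in the up list (red, to the right) or the down list (blue, to the left), in percent, with n regions and 95% Wilson intervals; dotted lines mark all flanking regions (5.61% up, 1.21% down). The group of NK receptors and adaptors has 0 up regions of 137 and 5.84% down.

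Of receptors by which NK cells recognise targets, with their adaptors, all 8 listed flanking regions were down. Of 28 genes with a flanking region, 6 had a down region and 0 an up region. Of all genes with a flanking region, 3.0% had a down and 13.5% an up region, with 3.09 flanking regions each on average. Of the 137 regions 8 were down (5.84%, 2.99 to 11.1%), an interval above the 1.21% of all flanking regions. The count of 0 up allows a share of up to 2.19%, below the 5.61% up of all flanking regions. Both flanking regions of Slamf6, a receptor that adjusts NK cell activation, were down, 14.6 and 17.1 kb downstream (chr1:171963548-171964005 and chr1:171966041-171966716). Sh2d1a, which encodes the adaptor SAP that acts with SLAM receptors, had its only flanking region down, 2.77 kb away. Ncr1, the gene of the activating receptor NKp46, had 1 of 7 down, 2.48 kb downstream, and 3 of its 4 genic regions were down too. Tyrobp, encoding the adaptor DAP12, had 1 of 7 down. Klra8 (Ly49H) had 2 of 7 and Klra3 1 of 9 down. The Ly49 genes are near-identical copies, so that reads there may have been placed at the wrong copy.

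In the IL-2 family of cytokines and receptors 0 of 36 flanking regions were up, which allows up to 8.33%, and 2 were down (5.56%, 1.54 to 18.1%), where 5.61% of all flanking regions were up and 1.21% down. These were 1 of 6 near Il21 and the single region of Il7r, the IL-7 receptor alpha chain gene, 3.38 kb upstream at chr15:9533321-9533810. None of the 3 regions flanking Il2rb, the 2 of Il2ra, the 4 of Il15 or the 1 of Il15ra was listed. Among receptors for IL-12, IL-18, interferons and related cytokines, 2 of 87 were up (2.30%, 0.633 to 8.0%) and 3 down (3.45%, 1.18 to 9.65%). Both up regions flanked Tgfbr2, a receptor for the inhibitory cytokine TGF-beta (of 14, at 9.55 and 48.0 kb). Down regions were found at Ifngr1, the interferon gamma receptor gene (2 of 20, at 74.7 and 86.8 kb), and Il10rb (1 of 9). Of 60 regions near JAK-STAT genes 3 were up (5%, 1.71 to 13.7%), at Jak1, Socs2 and Socs5, and 0 down, which allows up to 5%. Jak1 encodes a kinase bound to the IL-2 receptor beta chain and the Socs genes encode feedback inhibitors. The 4 regions near Cish, another feedback inhibitor, were unlisted.

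Transcription factors of the NK and T lineages had more down than up flanking regions, 12 and 8 of 386 (3.11%, 1.79 to 5.35%, and 2.07%, 1.05 to 4.04%), where 1.21% of all flanking regions were down and 5.61% up. Down regions were found at 9 of 37 genes. Of all genes with a flanking region, 3.0% had a down and 13.5% an up one, but these had only 3.09 flanking regions each on average. Klf6 had 3 and Klf2, which restrains division and promotes exit from tissue, had 2 of 7, at 1.67 and 27.6 kb. With 1 each were Klf3, Tcf7, Ets1, Zeb2, Bach2, Satb1 and Ikzf2. Tcf7 encodes TCF-1, a factor of immature and memory-like lymphocytes, and Zeb2 a factor of late NK maturation. Up regions were found at 6 genes. Prdm1, the Blimp-1 gene, had 3 of 18 up at 37.5, 80.6 and 87.0 kb upstream (the nearest at chr10:44566014-44566388), whereas 1 of its 9 genic regions was down. Gata3, Ahr, Tox2, Lef1 and Ikzf2 had 1 each. None of the 21 regions near Eomes, the 4 near Tbx21, the 17 near Id2 or the 23 near Runx3 was listed.

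Activation-induced factors had 12 up and 2 down of 176 (6.82%, 3.94 to 11.5%, and 1.14%, 0.312 to 4.05%). Both intervals include the shares of all flanking regions. Maf, encoding the bZIP factor c-Maf, had 5 of 11 up, on both sides of the gene at 35.7 to 77.8 kb, and its 1 genic region was unlisted. Jun, an AP-1 subunit gene, had 3 of 16 up at 13.2, 53.1 and 75.8 kb. Nr4a3, which encodes an orphan nuclear receptor induced by activation, had 2 of 12 up, 77.2 and 79.8 kb upstream (chr4:47964648-47967849 spans both). Fosl2 and Nfkbiz had 1 each. Tnfaip3, the gene of the NF-kB inhibitor A20, had 2 of 23 down and accounted for both down regions of the group. The 14 regions near Fos and the 2 near Batf were unlisted.

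Of 32 regions flanking cytotoxic granule genes 0 were up, which allows up to 9.38%, and 1 was down (3.12%, 0.554 to 15.7%). Of all flanking regions 5.61% were up and 1.21% down, within these limits. The down region lay 1.04 kb from Cst7, an inhibitor of granule protease processing. The 7 regions near Gzmb and the 4 near Prf1, the granzyme B and perforin genes, were unlisted. Effector cytokines and chemokines had 8 up of 116 (6.9%, 3.54 to 13.0%) and 1 down (0.862%, 0.152 to 4.72%), and these intervals also include the shares of all flanking regions. Ifng, the interferon gamma gene, had regions of both kinds among 26. Its down region lay 9.88 kb downstream (chr10:118455776-118456181) and its 3 up regions 57.9 to 72.2 kb downstream, all within 14.6 kb of each other (chr10:118503806-118518356). Ccl1 had 2 of 11 up, and Xcl1, Il10 and Il17a 1 each.

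Receptors and ligands of the TNF superfamily had 6 up of 80 (7.5%, 3.48 to 15.4%) and 1 down (1.25%, 0.221 to 6.75%), with intervals that include the shares of all flanking regions. Tnfrsf8 (CD30) had 3 of 9 up within 20.4 kb, and Tnfrsf9, the costimulatory receptor 4-1BB, had 2 of 4 up at 2.15 and 4.37 kb (chr4:150915189-150918001 spans both). Tnfsf4, the OX40 ligand gene, had 1 of 5. The down region flanked Fasl, a death ligand gene, as 1 of 23. Inhibitory checkpoint receptors had 5 up of 58 (8.62%, 3.74 to 18.6%) and 0 down, which allows up to 5.17%, so neither share stands apart from all flanking regions. Ctla4 had 2 of 10 up, at 4.66 and 33.3 kb, while Lag3, Tigit and Nt5e had 1 each, of 1, 6 and 9 regions. Nt5e, counted in this group, encodes an enzyme and not a receptor. The single flanking region of Havcr2 (TIM-3) was unlisted, although 3 of its 7 genic regions were up. The stretch between Cd28 and Ctla4 held the up region 33.3 kb from Ctla4 and, farther off, 2 down regions nearest to Cd28. The nearest-gene rule thus divides that stretch.

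Trafficking genes had 6 up of 193 (3.11%, 1.43 to 6.62%) and 5 down (2.59%, 1.11 to 5.92%), and both intervals include the shares of all flanking regions. The up regions were at Itga1 (CD49a) 3 of 14, Cd44 2 of 7 and Itgav 1 of 8. Down regions were found at S1pr1, the receptor that guides exit from lymphoid tissue (2 of 24), and at Ccr7, Cxcr4 and Itgal (1 each). The 2 near S1pr1 lay 27.2 and 31.0 kb from the gene (chr3:115679076-115683218 spans both).

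Genes of survival, division and metabolism were examined last. The BCL-2 family had 5 up of 45 (11.1%, 4.84 to 23.5%) and 0 down, which allows up to 6.67%. The up regions were 2 at Bcl2l11 and 2 at Pmaip1, which encode the death-promoting proteins BIM and NOXA, and 1 at Mcl1, whose product protects NK cells. Cell cycle and replication genes had 9 up of 93 (9.68%, 5.18 to 17.4%) and 0 down, which allows up to 3.23%. Both limits are above the 1.21% down of all flanking regions. Cdkn2b, an inhibitor of cyclin D kinases, had 5 of 12 up over 49.7 kb, starting 40.0 kb upstream. Ccnd1, the cyclin D1 gene, had 2 of 5 up, and E2f3 and Mki67 1 each. Among the genes of nutrient uptake, glycolysis and mTOR, 7 of 60 regions were up (11.7%, 5.77 to 22.2%) and 1 down. Hk2 had 4 of 11 up, 2 on each side of the gene at 15.6 and 22.0 kb downstream and 47.3 and 49.4 kb upstream. The up intervals of the BCL-2 and cell cycle groups include the 5.61% of all flanking regions, and that of the nutrient group starts just above it. With both neighbouring genes counted, 13 of 124 pairs of region and gene were up in the cell cycle group (10.5%, 6.23 to 17.1%). The share of such pairs over all genes was not computed. Slc2a1 (the glucose transporter GLUT1), Pfkfb3 and Pkm had 1 up each, and Pfkp had 1 down. The 13 regions near Myc were unlisted.

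**Figure D5:**
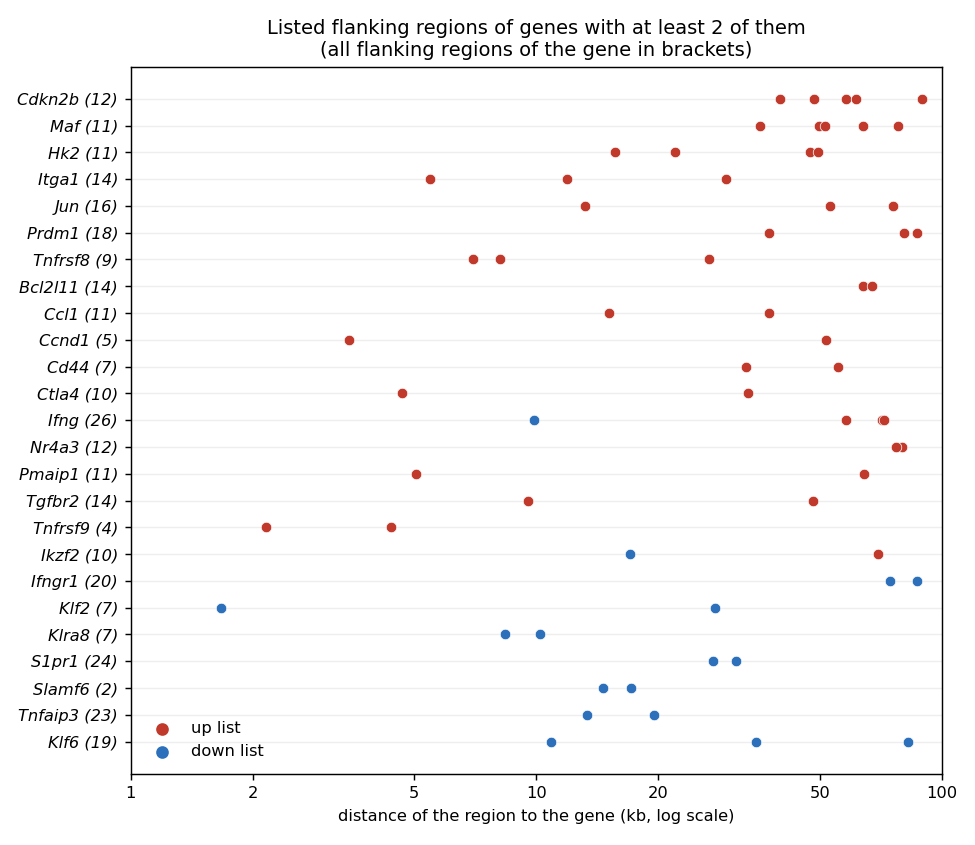
Each point is a listed flanking region of a gene of the 14 groups, by its distance to the gene in kb (log scale), red for up and blue for down, for the 25 genes with at least 2 listed flanking regions. Of these genes 16 have up regions only, 7 down regions only, and Ifng and Ikzf2 both; the down region of each of these 2 lies nearer to the gene than its up regions.

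Many regions between protein-coding genes overlapped genes of other kinds. Of the 27909, 6223 overlapped a non-coding gene or pseudogene, 5465 of them an lncRNA gene. Of the latter 291 were up (5.32%, 4.76 to 5.95%) and 52 down (0.952%, 0.726 to 1.25%), against 5.77% and 1.24% of the 21686 regions that overlapped no annotated gene. The 5 widest listed regions over such genes were, in the up list, 1140 bp at F630040K05Rik (chr17:45766917-45768056), 1034 bp at Gm17745, 1028 bp at Gm34705, 997 bp at Gm31418 and 991 bp at Gm30662. The last lies 22.1 kb from Tnfsf11, the RANK ligand gene. In the down list they were 1242 bp at Gm33104 (chr10:19503875-19505116), 86.8 kb from Ifngr1, 1161 bp at Gm32633 near Klf13, 1101 bp at Gm21909 near Khdc1a, 1066 bp at Gm6226 near Atp10a and 1035 bp at Gm41538, whose start window is printed above.

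Some lncRNA genes held several listed regions, and the following were chosen after their values were seen. All 5 up regions near Cdkn2b fell within Gm12610, which overlapped 12 flanking regions. The 3 up regions near Ifng lay in Ifngas1, an antisense lncRNA gene that overlapped 7. Gm31829, near Glrx5, had 3 of 4 up. Gm31279, near Cycs, had 3 of 7 down and Gm26740, near H60b, which encodes a ligand of the activating receptor NKG2D, 2 of 5 down. Reads of ATAC-seq carry no strand of transcription, so overlap with an lncRNA gene is a position only.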

How the data were processed

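ATAC-seq was performed on 4 samples of cultured NK cells, 2 per IL-15 dose, grouped by the dose in their titles. Per the submitters' processing notes, BWA, ArchR, MACS2 and HOMER (4.11.1) were used and the build was mm10. How peaks were called, whether on pooled samples, and the differential test with its threshold and reference dose are not given in the sources used here. The authors deposited 3 tables of positions: all regions with their width in bp, and the up and down lists. They contain 0 columns of values per sample, so depth is unknown and no test of dose could be made.

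After 1 was added to the starts of the full list, every listed region was identical to one of them, and all coordinates here are 1-based. Genes were the protein-coding spans of a RefSeq table of GRCm38.p6 on the 21 chromosomes. Distance is between the edges of region and gene, and regions were assigned to the nearest gene. All 358 gene symbols of the lists used were matched. Strand came from the RefSeq promoter table, and a region is upstream when it lies on the side of the gene's start. Shares have 95% Wilson intervals, and no test was run over regions, which are not replicates. Where a count was 0, 3 counts gave its upper limit. Named are the 10 genes and 5 intergenic stretches with most regions of each list, the 3 widest regions of each list, the 5 widest over non-coding genes, and group genes with a listed flanking region; group genes without one are named as examples. The members and lists were chosen with earlier results of these data known. The search for nearest genes was tested on simulated data. The planned motif search in whole regions was not run, since no genome was used here, and the search of promoter windows replaced it after the files had been seen. Python 3.11.15 with pandas 2.3.3 and scipy 1.17.1 was used. Alternatives concerned the distance limits, gene biotypes, width, chromosomes and the assignment to genes. Some items are not reported here.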

Additional observations from a re-analysis of the deposited data

How the results depend on the processing

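No paired analysis was possible because the tables give positions alone, so the shared replicate numbers of the doses could not be used and no replicate could be left out. For the 18 results recomputed, 115 alternatives were run. In 105 the share stayed within its interval or the count within 1.5 times the reported one, including all 15 for the distance classes. Leaving out 1 chromosome at a time, a choice made after the data were seen, gave 5.54 to 5.69% up and 1.17 to 1.26% down. The up share of listed flanking regions was then 81.7 to 82.9%.

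Limiting the set to regions at least as wide as the median of all regions gave 7.94% up and 1.92% down, since narrow regions were seldom listed. With spans of genes of any biotype 1.40% were down. The up share of listed regions was 85.3% below the median width and 58.8% in the widest of 10 classes, both added after the data were seen. Counting both neighbouring genes within 100 kb gave 1872 genes with an up region in place of 1214, and a limit of 25 kb gave 791 with an up and 167 with a down region in place of 271. Stretches with both lists numbered 26 when 3 listed regions were required (23.6% of 110 such stretches, against 15.6% of 353 with at least 2), and 25 between genes of any biotype, in place of 55. With both neighbours counted, a region between 2 genes of a group enters once for each. The counts that follow are thus pairs of region and gene, and not distinct regions. NK receptor and adaptor genes had 0 up and 11 down of 233 pairs, and checkpoint receptors 5 up and 2 down of 86. Receptors for IL-12, IL-18 and interferons then had 5 up and 4 down of 140, trafficking genes 11 up and 6 down of 270 and lineage transcription factors 12 up and 14 down of 510. Nutrient and glycolysis genes had 13 up and 1 down of 110, and cell cycle genes 13 up and 0 down of 124. The cause of the other changes was not tested. The motif search in whole regions and its alternative, limited to their central bases, were not run.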

Other observations

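Because the flanking rule concerns protein-coding genes, the set also held short RNA genes, antigen receptor segments and pseudogenes. Of all flanking regions, 5.61% were up, 1.21% down and 6.83% in either list. None of the 15 flanking regions that overlapped a microRNA gene was listed, and a count of 0 among 15 allows a share of up to 20%, above these shares. Their median width of 1048 bp was above that of all flanking regions, 360 bp. Among them was a region of 448 bp at chr16:84713963-84714410 that held the whole hairpin of Mir155, a microRNA known for its role in lymphocyte activation, 3.87 kb from Mrpl39. A region of 1384 bp held that of let-7i, 5.42 kb from Mon2. Another, of 1048 bp at chr11:75172908-75173955, held both Mir212 and Mir132, whose 3p arms share their seed. Mature sequences from RefSeq are given 5′ to 3′ with the seed, bases 2 to 8, in capitals.
miR-155-5p: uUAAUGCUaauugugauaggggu
let-7i-5p: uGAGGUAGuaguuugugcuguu
miR-212-3p: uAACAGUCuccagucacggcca
miR-132-3p: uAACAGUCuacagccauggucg

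Transfer RNA genes were overlapped by 102 flanking regions, of which 1 was up (0.98%, 0.173 to 5.35%) and 0 were down. Of 29 regions over V, D or J segments or constant regions of antigen receptor genes, 0 were up and 3 were down (10.3%, 3.58 to 26.4%). The T cell receptor beta locus as a whole, annotated as 1 gene of another kind, was overlapped by 46 flanking regions, 3 of them down. Pseudogenes were overlapped by 363 regions, with 17 up (4.68%, 2.94 to 7.37%) and 8 down (2.20%, 1.12 to 4.29%), intervals that include the shares of all flanking regions. Transcribed pseudogenes were overlapped by 150, with 2 up (1.33%, 0.366 to 4.73%) and 4 down (2.67%, 1.04 to 6.66%).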
